A study of Mus musculus with 32 samples.

Results

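Satellite cells and fibro-adipogenic progenitors (FAPs) of injured control muscle were compared at day 7, in 8 of the 32 libraries of the study. The members are the 4 control satellite cell libraries and the 4 control FAP libraries of that day, and the 2 cell types of a mouse are paired by the code in the column name. Cells had been sorted from the supraspinatus, a muscle of the rotator cuff, of wild-type male C57BL/6J mice that were 12 weeks old. The muscle had been injured with cardiotoxin, a toxin that destroys muscle fibres, and had received no graft. All groups of the study share this injury, and no uninjured or sham-operated muscle was analysed here. The same mice carried a muscle that was injured and then given interscapular brown adipose tissue (BAT) from donors aged 3 weeks, and that muscle and the control muscle of day 3 served for comparison only. Per the labels, both gates took CD45-, CD31- and Sca1+ cells, and integrin alpha 7 separated satellite cells (positive) from FAPs (negative).

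Satellite cells are the stem cells of skeletal muscle. After injury they divide, commit to the muscle lineage and fuse into new fibres, and a share of them returns to quiescence under Notch signalling. FAPs are interstitial mesenchymal cells that do not form fibres, produce the matrix of the regenerating muscle and secrete growth factors and cytokines that act on satellite cells and leukocytes.

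The 8 libraries held 22056809 to 31013379 counts. A gene with no count may therefore still be present at 3 counts, which is 0.0967 to 0.136 counts per 1000000 (CPM) depending on the library (counting error only). Levels below are CPM with trimmed mean (TMM) scaling, as mean ± SD of 4 mice, and log2 differences are satellite cells minus FAPs with the standard error (SE) of the edgeR fit. The 50 most abundant genes took 27.9 to 34.1% of counts in FAPs and 19.5 to 23.1% in satellite cells, and the TMM factors of the groups did not overlap (0.749 to 0.955 and 1.08 to 1.20). The mouse of replicate 3 did not match the labelled sex: in its 4 libraries of day 7 the female transcript Xist was at 163 to 355 CPM before TMM scaling and the Y-linked Ddx3y at 0. In the other 3 mice Xist was at most 0.161 and Ddx3y at least 49.1 CPM. Transcripts typical of each gate were also detected in the other. Of 8 satellite cell genes chosen after their values were seen (Pax7, Myod1, Myf5, Myog, Cdh15, Fgfr4, Chrna1, Asb5), the summed level in FAP replicate 3 was 1.43% of that in the satellite cells of the same mouse, against 0.0448 to 0.0836% in the other FAP libraries. For 8 FAP genes chosen in the same way (Pdgfra, Ly6a, C3, Clec3b, Lum, Gdf10, Dpt, Smoc2) the share in satellite cells was 2.22 to 3.67% of the FAP level. The share was uneven among these genes: Dpt, which encodes dermatopontin, was at 150.2 ± 39.6 CPM in satellite cells and 1259 ± 529 CPM in FAPs, and C3 at 2.20 ± 1.37 against 1145 ± 588 CPM.

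Itga7, by which the gates were sorted, and the marker genes Pax7, Pdgfra and Ly6a separated the gates in every mouse. Pax7, the transcription factor that defines satellite cells (chromosome 4, 139737062 to 139833528, mm10), was at 138, 101, 56.7 and 126 CPM in satellite cells of replicates 1 to 4 and at 0, 0, 0.622 and 0 CPM in FAPs. Itga7, the integrin of the sort (chromosome 10, 128933818 to 128958282), was at 731, 756, 425 and 722 CPM in satellite cells and at 3.20, 8.97, 16.96 and 2.95 CPM in FAPs. Replicate 3 was the lowest satellite cell library for both genes and the highest FAP library for both, and the groups did not overlap. Pdgfra, the growth factor receptor that marks FAPs (chromosome 5, 75152292 to 75198215), was at 353, 336, 324 and 343 CPM in FAPs and at 1.60, 6.50, 1.63 and 0.853 CPM in satellite cells. Ly6a, which encodes Sca1 (chromosome 15, 74994877 to 74998031), was at 1303, 984, 627 and 624 CPM in FAPs and at 4.19, 4.82, 8.05 and 3.59 CPM in satellite cells. The labels call both gates Sca1 positive, and at the transcript level only the FAP gate was rich in Ly6a. Ptprc, which encodes CD45, did not pass the filter on low counts and was at most 0.312 CPM in any of the 8 libraries. Pecam1, which encodes CD31, was at 0.732, 16.7, 3.48 and 0.611 CPM in FAPs and at 0.171, 0.869, 3.16 and 0.0711 CPM in satellite cells, highest in FAP replicate 2.

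**Figure D1:**
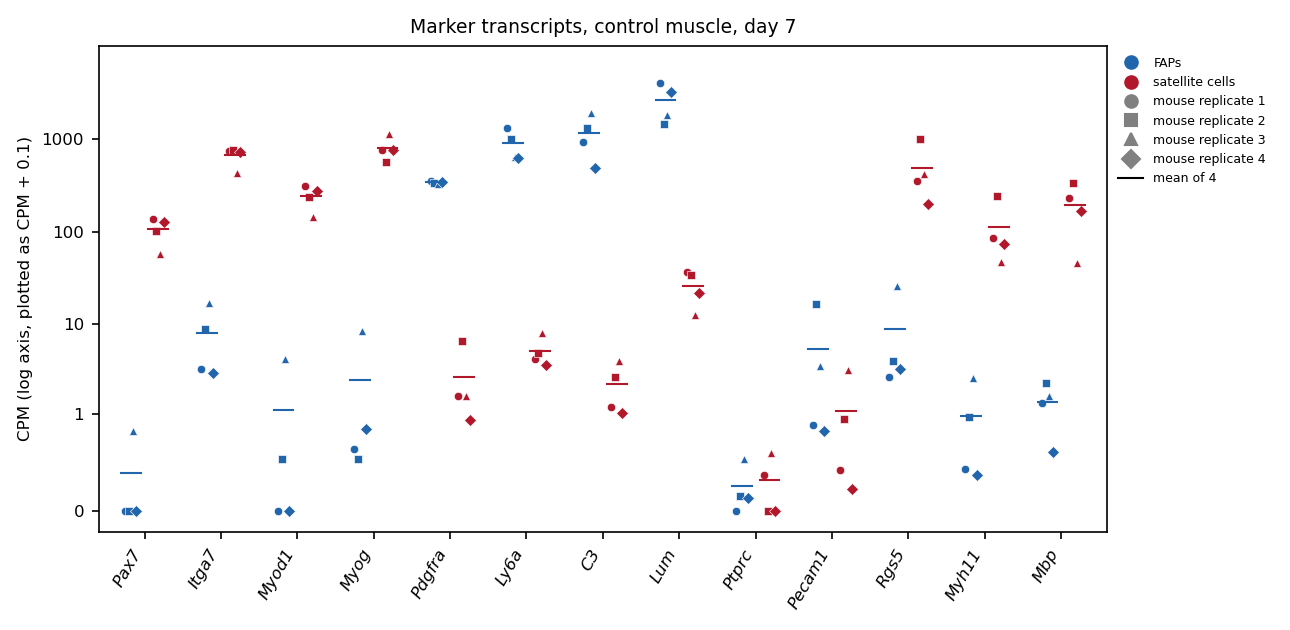
Levels of 13 marker transcripts in each of the 8 libraries (y axis, CPM on a log axis; blue FAPs, red satellite cells; the shape of a point gives the mouse, the line the mean of 4). Pax7 and Itga7 sit high in satellite cells and Pdgfra and Ly6a in FAPs without overlap, Ptprc stays below 1 CPM, and the pericyte and Schwann cell genes on the right sit higher in the satellite cell gate.

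The transcriptomes differed widely. Of 16969 genes tested, 3812 (22.5%) were higher in satellite cells and 3839 (22.6%) were higher in FAPs (edgeR quasi-likelihood test with the mouse as a block, Benjamini-Hochberg adjusted p under 0.05). These shares are the background for every count of called genes below. A difference of at least 4-fold among called genes was reached by 1138 genes towards satellite cells (6.71%) and 1223 towards FAPs (7.21%), and the median log2 difference over all genes tested was 0.05. Without the mouse of replicate 3, whose sex transcripts went against the labels, 3088 genes were higher in satellite cells and 3245 in FAPs. In these bulk samples fewer cells of a type and less RNA per cell cannot be told apart.

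**Figure D2:**
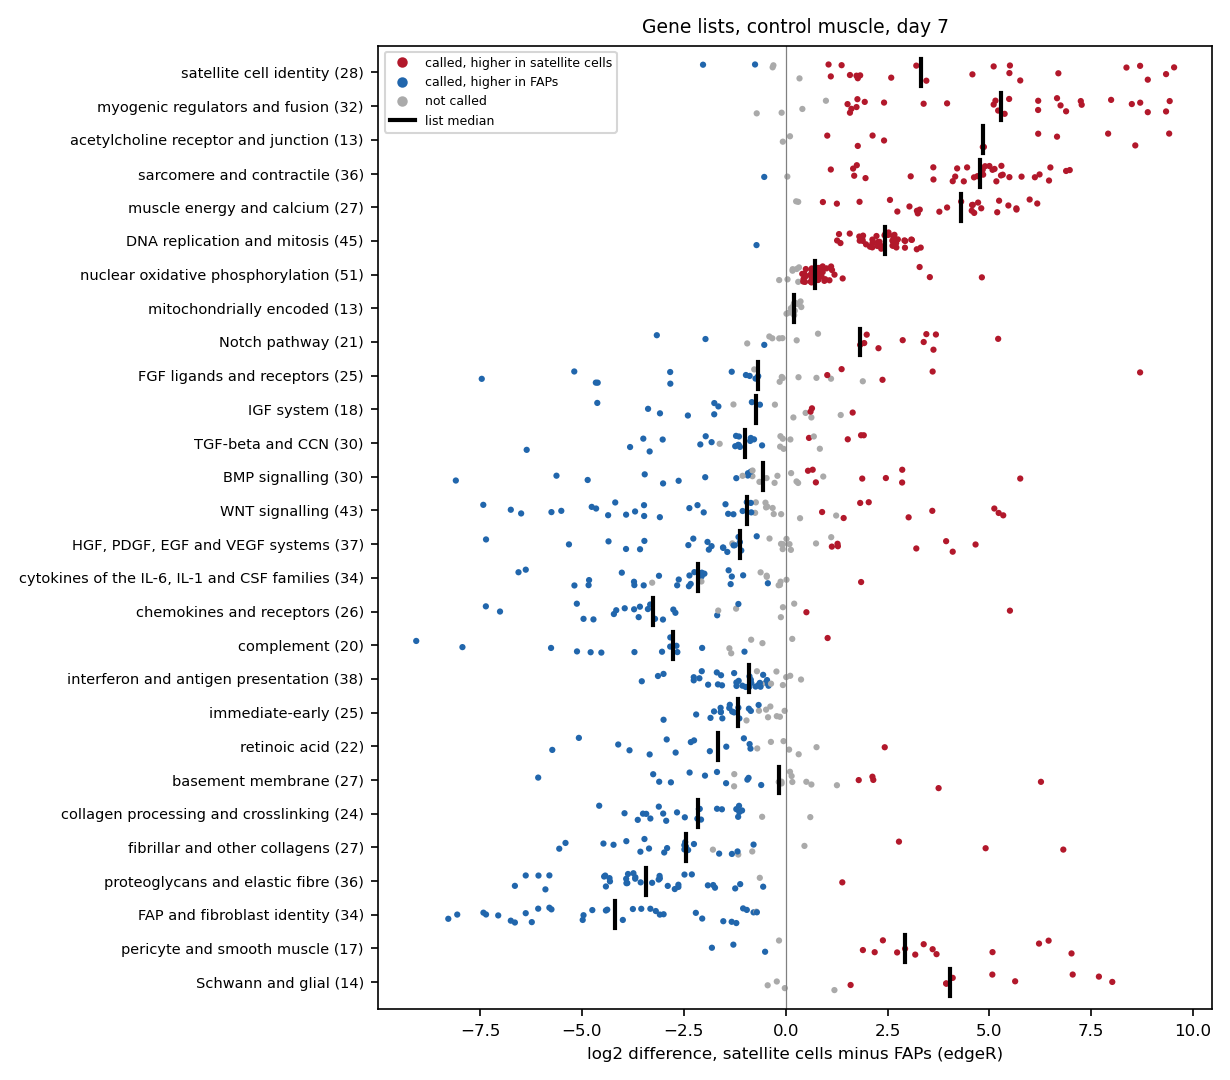
Log2 difference (x axis, satellite cells minus FAPs) of each tested member of 28 gene lists, with the number of tested members in parentheses. Red and blue points are genes called higher in satellite cells and in FAPs, grey points were not called, members with 3 or fewer counts in a group are not drawn, and the black line is the list median. Muscle lists lie to the right and matrix, chemokine and complement lists to the left, while the mitochondrially encoded genes sit close to 0.

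Genes of satellite cell identity were mostly on the satellite cell side: 23 of 28 tested members were higher there and 2 were higher in FAPs (list median 3.33). Myf5, a regulator of the committed muscle lineage, was at 233, 502, 431 and 352 CPM in satellite cells of replicates 1 to 4 and at 0.0915, 0.131, 5.03 and 0.0360 CPM in FAPs (log2 difference 9.34 ± 1.01, adjusted p = 0.000402). Cdh15, which encodes M-cadherin, the cadherin of satellite cells, was at 525, 541, 364 and 624 CPM against 0.275, 0.788, 7.57 and 0.252 CPM. The groups overlapped for neither gene, and the highest FAP value of both was that of replicate 3. Without that mouse the log2 difference was 12.02 for Myf5 and 10.38 for Cdh15. Pax3, the paralogue of Pax7, averaged 16.9 ± 2.55 CPM in satellite cells and had 0 counts in FAPs. Against 3 counts over the FAP libraries, this is at least 516-fold higher. Calcr, a receptor that holds satellite cells in quiescence, had 1 count in FAPs and 16.3 ± 8 CPM in satellite cells, a ratio of 1494 with a 95% counting interval of 268 to 59003. Several surface proteins of satellite cells differed less. Vcam1, an adhesion molecule used to purify them, was at 902 ± 151 CPM against 514 ± 328 CPM in FAPs, Ncam1, another adhesion molecule, at 630.2 ± 53.3 against 214 ± 129 CPM, and the tetraspanin gene Cd82 at 1121 ± 68.2 against 27.6 ± 13.99 CPM (adjusted p = 0.0457, 0.00376 and 6.37e-05). The Vcam1 groups overlapped, and its call was lost without replicate 1 (log2 difference 0.83, adjusted p = 0.174) or 4 (0.65, 0.173). The exceptions were Sdc3, which encodes the heparan sulphate proteoglycan syndecan 3 and has been used as a satellite cell marker, with a log2 difference of -0.75 ± 0.16, and Tnfrsf23, a decoy receptor for the ligand TRAIL, with -2.03 ± 0.14.

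Regulators of commitment and cell fusion were also higher in satellite cells, with 28 of 32 tested members called on that side, 0 on the FAP side and a median of 5.29. Myog, the regulator of terminal muscle differentiation, was at 745, 555, 1123 and 749 CPM in satellite cells and at 0.366, 0.263, 8.45 and 0.647 CPM in FAPs (log2 difference 9.42 ± 0.78, adjusted p = 0.000149). Myod1, the determination factor of activated satellite cells, was at 307, 236, 144 and 276 CPM against 0, 0.263, 4.15 and 0 CPM. All 4 satellite cell libraries held transcripts of stem cell, committed and differentiating stages side by side, and FAP replicate 3 was again the highest FAP library (log2 differences without replicate 3 of 10.64 for Myog and 11.60 for Myod1). Mymk, which encodes the fusion protein Myomaker, was at 45.6, 38.3, 61.6 and 47.4 CPM against 0.0457, 0.0438, 0.363 and 0.108 CPM, and Pitx3, a homeobox factor of differentiating muscle cells, had 0 counts in FAPs and was at least 160.2-fold higher in satellite cells (5.24 ± 2.21 CPM).

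The nicotinic acetylcholine receptor, through which nerves excite muscle, followed the same division. Of 13 tested genes of the receptor and the neuromuscular junction, 11 were higher in satellite cells and 0 in FAPs. Chrna1, the alpha subunit, was at 394, 384, 513 and 371 CPM in satellite cells and at 0.0915, 0.525, 9.23 and 0.468 CPM in FAPs (log2 difference 8.58 ± 0.91, adjusted p = 0.000369). Chrnd, the delta subunit, was at 32.9 ± 3.88 against 0.0519 ± 0.104 CPM, and Chrng, the fetal gamma subunit, at 35.03 ± 2.22 against 0.161 ± 0.211 CPM. Rapsn and Dok7, which encode proteins that cluster the receptor, had log2 differences of 6.66 ± 0.22 and 6.20 ± 0.25, and Musk, the receptor kinase of the junction, 2.41 ± 0.20. Without replicate 3, whose FAP library was the highest for Chrna1, the difference of Chrna1 was 10.03.

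Because the subunit genes moved together, the promoters of Chrna1 and Chrng (RefSeq, GRCm38.p6) are shown with the palindromic E-box CAGCTG, a form of the site that muscle regulators such as Myod1 and Myog are known to bind, in capitals. The Chrna1 window is chr2:73580339-73580448 (minus strand, the 110 bases before the start of the gene) and the Chrng window is chr1:87205641-87205750 (plus strand, from 170 to 61 bases before the start).
Chrna1: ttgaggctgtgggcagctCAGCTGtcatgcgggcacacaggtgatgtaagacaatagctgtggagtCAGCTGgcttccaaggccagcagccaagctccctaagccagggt
Chrng: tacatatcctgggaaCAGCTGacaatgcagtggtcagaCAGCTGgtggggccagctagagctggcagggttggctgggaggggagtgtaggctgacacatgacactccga
Each window holds 2 matches. Over windows of 250 bases before to 50 bases after a start, searched on both strands, the motif is in 16.3% of all 32851 promoters, and at the level of genes in 18.3% of 27025 genes. Of the tested muscle energy and calcium genes with an entry, 11 of 19 hold it, of the sarcomere genes 11 of 27, of the receptor and junction genes 4 of 8, and of the chemokine genes 6 of 20. A match is a description of the letters and no measure of binding.

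Genes of the contractile apparatus were detected in satellite cells, higher than in FAPs for 34 of 36 tested members (median 4.77). Acta1, skeletal muscle actin, was at 1244, 3050.1, 1184 and 2627 CPM in satellite cells and at 118, 47.1, 40.6 and 69.8 CPM in FAPs (log2 difference 4.89 ± 0.44, adjusted p = 0.000197). The embryonic myosin heavy chain Myh3 was at 3.37, 9.73, 12.9 and 10.5 CPM in satellite cells, lowest in replicate 1, and at 0.183, 0.0438, 0.0519 and 0 CPM in FAPs. Per kilobase of exon, the adult fast chains Myh4 and Myh1 were higher than Myh3 in satellite cells (5.64 and 2.96 against 1.51 CPM). Myh8 (0.269) and Myh2 (0.0956) were lower than Myh3. These 4 other chains were added after their values were seen and do not enter the flags and recomputed genes below. Des, the muscle intermediate filament desmin, was at 751 ± 41.6 against 26.96 ± 19.8 CPM, and the giant sarcomere protein gene Ttn at 228 ± 57.7 against 2.90 ± 1.78 CPM. Tpm3, a tropomyosin with isoforms outside muscle, was the single member called higher in FAPs (log2 difference -0.53 ± 0.14), a call lost without replicate 1 (adjusted p = 0.0841) or 4 (0.0603). Among genes of muscle energy supply and calcium handling 25 of 27 were higher in satellite cells and 0 in FAPs, among them the muscle creatine kinase Ckm (4.80 ± 0.46), the calcium buffer Pvalb (5.47 ± 0.44) and the calcium release channel Ryr1 (5.99 ± 0.30). The summed level of the sarcomere list was 6036 to 9754 CPM in satellite cells and 1147 to 1555 CPM in FAPs. The gates could also hold fragments of muscle fibres, and their part in these levels was not tested.

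Proliferation genes were higher in satellite cells. Of 45 genes of DNA replication and mitosis, 44 were called on that side, with a median log2 difference of 2.43. Top2a, the topoisomerase of dividing cells, was at 265, 256, 458 and 245 CPM in satellite cells and at 23.9, 39.05, 89.6 and 16.7 CPM in FAPs (log2 difference 3.10 ± 0.27, adjusted p = 0.000180), without overlap. Rrm2, a subunit of ribonucleotide reductase, was at 261 ± 25.5 against 34.2 ± 19.9 CPM and Cdc6, a licensing factor of replication, at 46.9 ± 9.98 against 5.42 ± 3.39 CPM. E2f1, a transcription factor of S phase entry, was the member called higher in FAPs (-0.72 ± 0.17, adjusted p = 0.0127, and 0.0507 without replicate 2). The D cyclins, which link growth factors to the cell cycle, were divided: Ccnd1 (2.12 ± 0.28), Ccnd3 (2.00 ± 0.13) and their partner kinase Cdk6 (2.20 ± 0.23) were higher in satellite cells, and Ccnd2 was higher in FAPs at 200.2 ± 56.3 against 66 ± 41.3 CPM (-1.73 ± 0.19). The inhibitor locus Cdkn2a was low in both but higher in satellite cells (3.16 ± 0.431 against 0.568 ± 0.321 CPM, adjusted p = 0.00837).

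Nuclear genes of oxidative phosphorylation were modestly higher in satellite cells, with 44 of 51 called there and 0 in FAPs. The muscle isoforms of cytochrome oxidase subunits stood apart in size: Cox6a2 was at 15.2 ± 4.43 against 0.535 ± 0.188 CPM (4.81 ± 0.30), Cox7a1 at 10.5 ± 3.25 against 1.01 ± 0.816 CPM (3.54 ± 0.39) and Cox8b at 6.57 ± 2.97 against 0.856 ± 0.955 CPM (3.29 ± 0.53). The other 48 subunits had a median of 0.66 and ranged from -0.16 to 1.40. Atp5b, a catalytic subunit of ATP synthase, was at 983, 1071, 1208 and 929 CPM in satellite cells and at 403, 719, 551 and 378 CPM in FAPs. Of the 13 mitochondrially encoded genes 0 were called by edgeR, 1 had an unadjusted p under 0.05, DESeq2 called 0 and limma voom 0, and the list median was 0.20. Of 30 tested glycolysis and hypoxia genes 8 were higher in satellite cells and 9 in FAPs (median 0.07). Among the 8 were the muscle forms Eno3 (4.57 ± 0.29) and Pgam2 (5.19 ± 0.42) and the insulin-responsive glucose transporter Slc2a4 (3.43 ± 0.31). Enzymes of glycolysis that are not restricted to muscle were also among the 8. FAPs had more of the hexokinase Hk2 (198 ± 62.7 against 35.4 ± 14.5 CPM), the general glucose transporter Slc2a1 (130.4 ± 59.3 against 37.9 ± 15.9 CPM) and Hif1a, the hypoxia-regulated factor (199.9 ± 139 against 57.5 ± 17.4 CPM), with adjusted p of 0.000153, 0.00273 and 0.00132.

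On the FAP side, 33 of 34 tested identity genes were higher in FAPs and 0 in satellite cells (median -4.19). Clec3b, which encodes tetranectin, was at 249.7, 188, 45.9 and 237 CPM in FAPs and at 1.20, 0.689, 0.104 and 0.391 CPM in satellite cells (log2 difference -8.28 ± 0.29, adjusted p = 1.97e-05). Pi16, a gene of a perivascular fibroblast population, was at 555, 116, 115 and 249 CPM in FAPs and at 1.14, 4.37, 0.694 and 1.46 CPM in satellite cells. FAP levels of Pi16 varied several-fold among mice, and the groups did not overlap. The small leucine-rich proteoglycans Lum, which encodes lumican, and Dcn, which encodes decorin, were at 2599.7 ± 1178 and 8579 ± 3030.3 CPM in FAPs against 26.1 ± 11.03 and 166 ± 78.8 CPM in satellite cells. Vim, the intermediate filament of mesenchymal cells, differed less (-0.71 ± 0.14). Among the genes with the largest differences towards FAPs outside the identity list were the glaucoma-associated matrix gene Myoc (-6.86 ± 0.30), the metallocarboxypeptidase gene Cpz (-7.31 ± 0.58), the leucine-rich proteoglycan Podn (-7.11 ± 0.68), the annexin Anxa8 (-6.93 ± 0.49) and the acute-phase gene Saa3 (49.6, 86.3, 1709 and 25.97 CPM in FAPs, 0.314, 0.569, 15.5 and 0.426 CPM in satellite cells). Saa3 was highest in replicate 3 in both cell types.

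Matrix genes lay on the FAP side. Of the collagens other than type IV, 20 of 27 were higher in FAPs and 3 in satellite cells (median -2.45). Col1a1, the main chain of fibrillar collagen I, was at 17287, 76518, 28831 and 24529 CPM in FAPs and at 1295, 5973, 468 and 1886 CPM in satellite cells (log2 difference -4.23 ± 0.43, adjusted p = 0.000320). Col3a1, the chain of the thin fibrils of early repair, was at 28131 ± 4912 against 1973 ± 843 CPM, and the fibril-associated Col14a1 at 724 ± 61.4 against 16.9 ± 9.16 CPM. The highest Col1a1 level of the satellite cell libraries was that of replicate 2. Per length, collagen transcripts were also among the most abundant in FAPs: Col1a1 was at 5606 and Col3a1 at 2866 CPM per kilobase of exon, against 366 and 201 in satellite cells.

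The 3 collagens higher in satellite cells were Col26a1, at 74.8, 52.4, 41.4 and 81.1 CPM in satellite cells and 0.458, 1.01, 0.519 and 0.252 CPM in FAPs (log2 difference 6.81 ± 0.41), the muscle-tendon junction collagen Col22a1 (14.6 ± 8.45 against 2.09 ± 1.58 CPM) and the transmembrane collagen Col25a1, needed for motor nerves to enter muscle (5.26 ± 0.940 against 0.219 ± 0.313 CPM), with adjusted p of 4.90e-05, 0.00123 and 0.00161. In the basement membrane, the sheet that separates satellite cells from the interstitium, the list was divided: 5 of 27 genes were higher in satellite cells and 11 in FAPs (median -0.17). The satellite cell count was not above the share over all genes tested (22.5%). The laminin chain Lama5 was at 52.4, 39.6, 22.03 and 40.4 CPM in satellite cells and at 0.183, 0.657, 0.726 and 0.396 CPM in FAPs (6.27 ± 0.44), and Dag1, which encodes the laminin receptor dystroglycan, at 2041, 1774, 1145 and 2097 against 109, 200.4, 121 and 99.7 CPM (3.75 ± 0.27). Both were higher in satellite cells in all 4 mice without overlap of the groups. The linker Nid1, which encodes nidogen 1, was at 821 ± 271 CPM in FAPs against 106 ± 69.01 CPM, the laminin chain Lama4 had a log2 difference of -3.25 ± 0.31, and the calcium-binding matrix gene Smoc2 -6.07 ± 0.60.

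Enzymes that process and crosslink collagen were higher in FAPs for 22 of 24 genes and in satellite cells for 0. Pcolce, an enhancer of procollagen cleavage, was at 2237 ± 809 against 235 ± 127 CPM, the crosslinking enzyme Loxl2 at 251 ± 59.4 against 24.4 ± 15.4 CPM, and the collagen chaperone gene Serpinh1, the most abundant of the list, differed less (-1.14 ± 0.22). Among proteoglycans and elastic fibre genes 34 of 36 were higher in FAPs, among them the microfibril gene Mfap5 (-6.38 ± 0.53) and Postn, which encodes periostin (6409.9 ± 1047 against 560.5 ± 186 CPM). Acan, which encodes the cartilage proteoglycan aggrecan, was the single member higher in satellite cells (5.49 ± 4.77 against 1.88 ± 1.33 CPM, adjusted p = 0.00684). Of the proteases and their inhibitors 24 of 34 were higher in FAPs, such as the gelatinase gene Mmp2 (1957 ± 283 against 185 ± 87.8 CPM) and the stromelysin gene Mmp3 (-6.48 ± 0.39). The membrane-type protease Mmp15 (4.44 ± 0.44) and the protease genes Adamts8 (3.02 ± 0.57) and Adamts20 (4.76 ± 0.57) were higher in satellite cells.

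Receptors for matrix were split between the cell types. Of 20 integrin genes, 7 were higher in satellite cells and 8 in FAPs. Besides Itga7 (6.69 ± 0.64), the laminin receptor chain Itga6 (1.56 ± 0.26) and Itgb6 (3.85 ± 0.57), a chain of an integrin that activates TGF-beta, were higher in satellite cells. The collagen receptor chain Itga11 was at 205, 266, 139.8 and 165 CPM in FAPs and at 4.62, 13.1, 1.46 and 4.02 CPM in satellite cells (-5.38 ± 0.36), and the fibronectin receptor chain Itga5 at 679 ± 393 against 94.6 ± 74.98 CPM. Cadherins were also divided: Cdh15, Cdh2 (1.94 ± 0.20), which encodes N-cadherin, Cdh6 (5.76 ± 0.81) and Cdh1 (4.93 ± 0.98), which encodes E-cadherin, were higher in satellite cells, and Cdh11, the cadherin of mesenchyme (-3.27 ± 0.32), and Cdh3 (-4.10 ± 0.34) in FAPs.

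Several growth factors were higher in one cell type while a receptor for them was higher in the other. Hgf, the factor that activates satellite cells, was at 16.6, 23.6, 47.2 and 13.6 CPM in FAPs and at 1.14, 4.31, 1.53 and 1.49 CPM in satellite cells (log2 difference -3.57 ± 0.41, adjusted p = 0.000510). Its receptor Met was at 45.1, 35.5, 48.8 and 35.3 CPM in satellite cells and at 3.43, 5.52, 4.36 and 4.50 CPM in FAPs (3.21 ± 0.21, adjusted p = 7.09e-05). Neither gene overlapped between the groups. The chemokine gene Cxcl12 was at 307, 1275, 2551 and 347 CPM in FAPs and at 28.9, 85.1, 47.5 and 23.2 CPM in satellite cells (-4.22 ± 0.40), and its signalling receptor Cxcr4 at 24.6, 36.4, 33.3 and 30.3 CPM in satellite cells and at 0.275, 1.05, 0.622 and 0.863 CPM in FAPs (5.50 ± 0.27). Ackr3, the scavenging receptor for the same chemokine, was on the FAP side (343 ± 153 against 48.3 ± 13.9 CPM).

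Among genes of FGF signalling, 5 of 25 were higher in satellite cells, not above the share over all genes tested (22.5%), and 11 in FAPs. The ligands Fgf7 (61.6, 261, 374 and 63.7 CPM in FAPs, 1.88, 13.1, 5.72 and 1.46 CPM in satellite cells), Fgf10 (-7.46 ± 0.64), Fgf18 (-4.66 ± 0.66), Fgf9 (-4.61 ± 0.60) and Fgf2 (-2.83 ± 0.31) were higher in FAPs. The receptor Fgfr4, a receptor of muscle precursors, was at 436, 319.6, 243 and 427 CPM in satellite cells and at 0.275, 0.350, 4.98 and 0.288 CPM in FAPs (8.70 ± 0.95, adjusted p = 0.000410), whereas Fgfr1, at 339.7 ± 31.6 CPM in FAPs and 207 ± 48.4 CPM in satellite cells, was moderately higher in FAPs (-0.74 ± 0.17). FGF receptors differ in the ligands they bind, and whether the ligands named here act through Fgfr4 was not tested. Of the feedback inhibitors, Spry1, which is known to restrain satellite cell cycling, was higher in satellite cells (1.37 ± 0.16) and Spry2 in FAPs (-1.32 ± 0.17). The intracellular FGF homologues Fgf11 (2.38 ± 0.29) and Fgf13 (3.61 ± 0.51) were on the satellite cell side.

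In the insulin-like growth factor system, Igf1 was at 883, 577, 708 and 1004 CPM in FAPs and at 67.3, 93.7, 122 and 90.4 CPM in satellite cells (-3.09 ± 0.24, adjusted p = 0.000126), while Igf2 was at 300.0 ± 213 and 376 ± 72.5 CPM and did not pass the test (adjusted p = 0.300). The receptor gene Igf1r was at 36.97 ± 8.69 CPM in FAPs and 51 ± 4.80 CPM in satellite cells and did not pass either (0.49 ± 0.19, adjusted p = 0.0752). Binding proteins, which hold the ligands outside the cell, were divided: Igfbp6 (-4.62 ± 0.20), Igfbp4 (-3.38 ± 0.29) and Igfbp7 (-1.75 ± 0.29) were higher in FAPs, and Igfbp3 (1.64 ± 0.30) in satellite cells. Of the platelet-derived growth factors, Pdgfa was at 129, 177, 109.7 and 139 CPM in satellite cells and at 28.3, 99.1, 87.7 and 41.5 CPM in FAPs (1.27 ± 0.30, adjusted p = 0.0122, and 0.0685 without replicate 4), Pdgfb was on the same side (4.66 ± 0.45), and Pdgfd on the FAP side (-3.92 ± 0.43). Their receptors Pdgfra (-7.35 ± 0.52) and Pdgfrb (-1.53 ± 0.36) were higher in FAPs. Pdgfrb was not absent from satellite cells, at 61.8, 318, 44.02 and 65.1 CPM in replicates 1 to 4, with replicate 2 above the FAP mean of 251 CPM. The Pdgfrb groups overlapped, and its call was lost without replicate 1 (adjusted p = 0.0528) or 4 (0.0579). The EGF family ligand Ereg, which encodes epiregulin, was at 11.9, 115, 288 and 6.73 CPM in FAPs, high in replicates 2 and 3, against 1.30 ± 0.571 CPM in satellite cells.

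**Figure D3:**
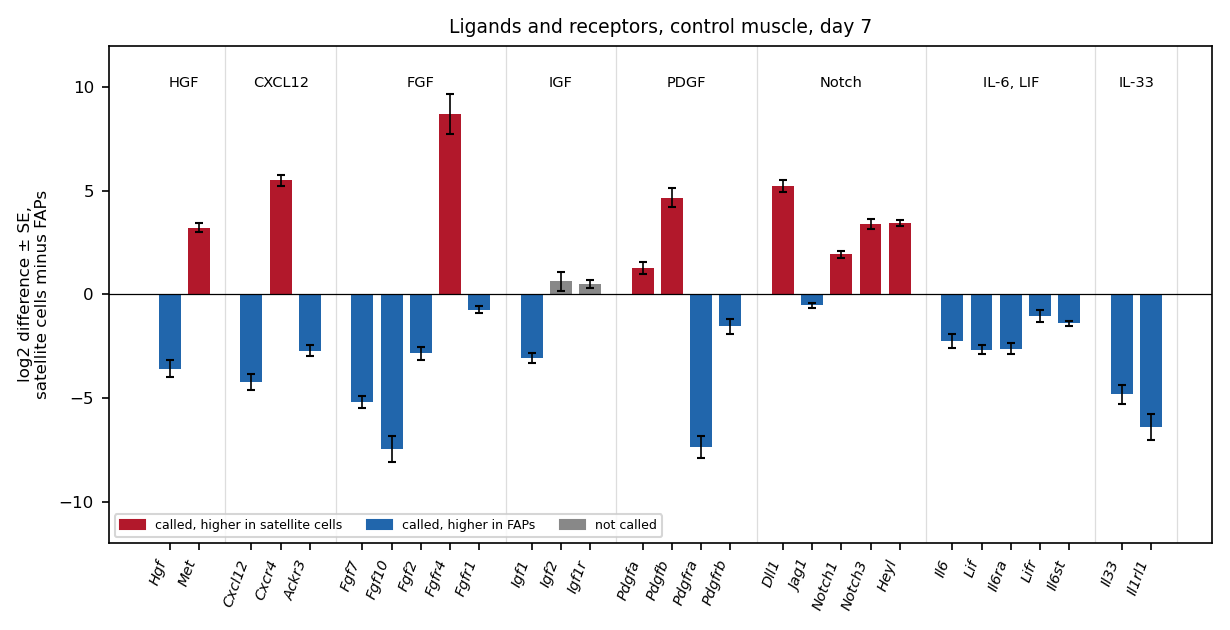
Log2 difference ± SE (y axis, satellite cells minus FAPs, edgeR) of ligands and receptors in 8 signalling systems. Red and blue bars were called higher in satellite cells and in FAPs, and grey bars were not called. Hgf and Cxcl12 point down and their receptors Met and Cxcr4 up, while Pdgfa and Pdgfb point up and both PDGF receptors down. Among the FGF genes Fgf7 points down and Fgfr4 up, and they are not shown as a matched ligand and receptor.

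The Notch pathway, which maintains satellite cells, was mainly on the satellite cell side (11 of 21 higher there, 3 higher in FAPs). The ligand gene Dll1 was at 45.03, 32.3, 30.5 and 54.4 CPM in satellite cells and at 0.961, 0.963, 1.45 and 0.935 CPM in FAPs (5.21 ± 0.28), the receptor Notch1 at 67.2 ± 23.99 against 17.7 ± 7.25 CPM, and Notch3 at 125 ± 45.2 against 11.4 ± 2.67 CPM. Among targets of the pathway, Heyl was at 442, 630.1, 251 and 555 CPM in satellite cells and at 42.1, 67.8, 19.7 and 47.8 CPM in FAPs (3.45 ± 0.14), with Hey1 (1.83 ± 0.16) and Hey2 (3.69 ± 0.53) on the same side. Hes1, a target in many cell types, was at 69.1 ± 16.7 CPM in FAPs and 68.2 ± 26.2 CPM in satellite cells and did not pass the test (adjusted p = 0.681). Jag1 (-0.53 ± 0.12), another ligand, and Dlk1 (-3.16 ± 0.74), a non-canonical ligand, were higher in FAPs, Dlk1 with an adjusted p of 0.0602 without replicate 4. Notch3 and Heyl are also expressed by pericytes, whose markers were present in the satellite cell gate (values below), and the part of those cells in these levels was not tested.

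In the TGF-beta and CCN list 18 of 30 genes were higher in FAPs and 4 in satellite cells. Mstn, the inhibitor of muscle growth myostatin, was at 20.9, 32.4, 4.72 and 13.4 CPM in FAPs and at 0.999, 1.11, 0.659 and 1.63 CPM in satellite cells (-3.82 ± 0.40, adjusted p = 0.000344), and its antagonist Fst, which encodes follistatin, at 40.4, 19.4, 42.9 and 28.02 CPM in FAPs and 2.14, 4.91, 2.64 and 2.10 CPM in satellite cells (-3.49 ± 0.40). Both the inhibitor and its antagonist were therefore higher in FAPs. Inhba, which encodes the subunit of activin A, was at 269, 574, 268 and 159 CPM in FAPs and at 12.2, 162, 18.3 and 17.7 CPM in satellite cells, with satellite cell replicate 2 the highest of that group. The type II activin receptor gene Acvr2b was on the satellite cell side (1.92 ± 0.48), and Tgfbr2, the type II TGF-beta receptor, on the FAP side (-1.82 ± 0.13). Gdf15, a stress-induced member of the family, was higher in satellite cells (81.3 ± 35.98 against 21.9 ± 6.60 CPM, adjusted p = 0.00421), as was Fstl3, which encodes a follistatin-like antagonist of activin (34.2 ± 10.6 against 13.3 ± 7.76 CPM, 1.52 ± 0.38). The call of Fstl3 was lost without replicate 1 (adjusted p = 0.0680) or 4 (0.0622).

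In the BMP list 11 of 30 genes were higher in FAPs and 8 in satellite cells. Gdf10, a marker and ligand of FAPs, was at 41.9, 36.2, 11.05 and 69.95 CPM in FAPs and at 0.0571, 0.270, 0 and 0.249 CPM in satellite cells (-8.10 ± 0.40), and the secreted antagonist Grem1 (-3.46 ± 0.46) and the ligand gene Bmp5 (-2.63 ± 0.31) were on the same side. Other ligands and antagonists were higher in satellite cells: the ligand genes Bmp6 (11.2 ± 4.63 against 2.88 ± 0.466 CPM, 1.88 ± 0.26) and Gdf6 (2.30 ± 1.15 against 0.300 ± 0.107 CPM, 2.86 ± 0.42) and the antagonist gene Chrdl2 (3.13 ± 0.504 against 0.0588 ± 0.0688 CPM, 5.76 ± 0.77). The direct target Id1 (743, 573, 444 and 660.0 CPM in satellite cells, 119, 87.6, 73.8 and 178 CPM in FAPs, 2.46 ± 0.18), an inhibitor of muscle regulators, was higher in satellite cells. Id1 did not overlap between the groups.

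Of 43 genes of WNT signalling, 24 were higher in FAPs and 9 in satellite cells, the latter not above the share over all genes tested (22.5%). The ligand genes Wnt2 (22.2, 22.02, 2.75 and 3.52 CPM in FAPs, 0, 0.270, 0 and 0.0355 CPM in satellite cells), Wnt5a (-3.48 ± 0.49), Wnt16 (-5.51 ± 0.80) and Wnt11 (-3.09 ± 0.38) and the enhancers Rspo2 (-4.76 ± 0.81) and Rspo3 (-4.36 ± 0.56) were on the FAP side. So were the secreted antagonists Sfrp1 (-6.49 ± 0.52), Sfrp2 (-6.75 ± 0.46), Sfrp4 (-5.75 ± 0.38) and Dkk2 (-4.18 ± 0.19), whereas Sfrp5 was higher in satellite cells (17.7, 30.7, 2.64 and 14 CPM against 0, 0.0875, 1.82 and 0.252 CPM in FAPs, 5.23 ± 1.34). The Sfrp5 call was lost without replicate 1, 2 or 4 (adjusted p = 0.0621, 0.0576 and 0.0805). Satellite cells had more of the nuclear effector Tcf7 (6.20 ± 0.895 against 0.274 ± 0.518 CPM, 5.34 ± 0.96), the ligand gene Wnt10a (5.12 ± 1.03), the receptors Fzd3 (2.04 ± 0.24) and Fzd4 (0.89 ± 0.12) and Znrf3, which removes receptors from the surface (1.42 ± 0.20). Axin2, a general target of the pathway, was low in both (means of 1.23 CPM in FAPs and 1.59 CPM in satellite cells, adjusted p = 0.601).

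Inflammatory signals were concentrated in FAPs. Of the cytokine list 24 of 34 tested genes were higher in FAPs, and Cntf, a neurotrophic cytokine, was the single one higher in satellite cells (3.10 ± 1.30 against 0.817 ± 0.153 CPM). Il6 was at 286, 396, 1016 and 248 CPM in FAPs and at 42.1, 214, 132 and 50.03 CPM in satellite cells (-2.24 ± 0.34, adjusted p = 0.00177). Il33, an alarmin of FAPs that acts on regulatory T cells, was at 506, 601, 679.8 and 313 CPM in FAPs and at 10.04, 54.4, 32.6 and 5.44 CPM in satellite cells (-4.83 ± 0.44). Its receptor gene Il1rl1 was also on the FAP side (458, 1537, 576 and 188 CPM against 1.46, 69.2, 5.72 and 2.35 CPM in satellite cells, -6.38 ± 0.63). The groups did not overlap for Il33 or Il1rl1, and satellite cell replicate 2 was the highest of its group for Il1rl1. Lif (-2.66 ± 0.22), the macrophage growth factor Csf1 (-2.36 ± 0.15) and Csf2 (-5.19 ± 0.81) were higher in FAPs, as were the receptor subunits Il6st (-1.40 ± 0.13) and Osmr (-2.06 ± 0.21). Csf3, the granulocyte growth factor, was at 1.10, 40.9, 94.9 and 4.75 CPM in FAPs of replicates 1 to 4.

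Among chemokines and their receptors 19 of 26 were higher in FAPs and 2 (Cxcr4 and Mif) in satellite cells. The call of Mif, a cytokine of many cell types, was lost without replicate 1, 2 or 4 (log2 difference 0.51 ± 0.17, and adjusted p of 0.144, 0.0678 and 0.186 without them). The monocyte attractant Ccl2 was at 2506, 4459.9, 3345 and 1627 CPM in FAPs and at 76.8, 665, 448 and 85.7 CPM in satellite cells (-3.72 ± 0.42, adjusted p = 0.000475), and the neutrophil attractant Cxcl1 at 3039.8, 5141, 7304 and 1810.2 CPM in FAPs and at 192, 1168, 977 and 220.2 CPM in satellite cells (-3.01 ± 0.29). The FAP libraries were not uniform: the neutrophil attractant Cxcl5 was at 89.6, 1433, 1400.1 and 60.4 CPM, high in replicates 2 and 3, and at 0.656, 97.5, 24.7 and 3.30 CPM in satellite cells, so that the groups overlapped. Ccl8, a monocyte attractant (-7.36 ± 0.51), and Ackr2, a decoy receptor that removes chemokines (-7.01 ± 1.10), had the largest differences of the list. Ccl7 (-4.72 ± 0.43), Ccl20 (-3.95 ± 0.27) and Cxcl2 (-3.21 ± 0.26) were also called towards FAPs.

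The promoters of 3 of these chemokine genes are shown because they hold the motif GGGNNTTTCC, a core form of the site of NF-kB, a factor of inflammatory transcription, in capitals. The windows are chr5:90891135-90891244 for Cxcl1, chr5:90903789-90903868 for Cxcl2 and chr1:83116656-83116765 for Ccl20 (RefSeq, GRCm38.p6, plus strand).
Cxcl1: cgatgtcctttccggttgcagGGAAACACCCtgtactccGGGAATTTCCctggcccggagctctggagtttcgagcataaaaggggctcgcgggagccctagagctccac
Cxcl2: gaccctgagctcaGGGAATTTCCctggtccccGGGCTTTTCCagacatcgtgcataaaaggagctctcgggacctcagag
Ccl20: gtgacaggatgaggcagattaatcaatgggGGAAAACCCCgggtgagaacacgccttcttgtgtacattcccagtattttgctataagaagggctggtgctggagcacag
The first match of Cxcl1 and the match of Ccl20 lie on the other strand, so their letters are the reverse complement of the motif. Searched on both strands, the motif is in 1.63% of all 32851 promoters, and at the level of genes in 1.89% of 27025 genes. Of the tested chemokine list genes with an entry 4 of 20 hold it (also Ccl9), and of the cytokine list genes 4 of 26 (Csf1, Il1rn, Il4ra and Il6).

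Complement, the plasma protein cascade of innate immunity, was another FAP feature: 14 of 20 tested genes were higher in FAPs. C3, the central component, had the largest log2 difference towards FAPs of the genes named here, at 921, 1310.5, 1866 and 481 CPM in FAPs and 1.20, 2.61, 3.96 and 1.03 CPM in satellite cells (-9.07 ± 0.22, adjusted p = 8.36e-06). Cfb, the protease of the alternative pathway, was at 417 ± 155 against 2.83 ± 3.08 CPM and C4b, of the classical pathway, had a log2 difference of -5.76 ± 0.18. The inhibitor gene Serping1 was abundant in FAPs (2475 ± 536 CPM) and lower in satellite cells (349 ± 89.2 CPM). Cd59a, which protects cells from the terminal complex, was the single member higher in satellite cells (1.03 ± 0.22).

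Interferon and antigen presentation genes were higher in FAPs for 30 of 38 members and in satellite cells for 0, with a modest median of -0.89. B2m, the common chain of class I molecules, was at 1349.8, 1142, 753 and 1359 CPM in FAPs and at 468, 683, 491 and 409 CPM in satellite cells (-1.15 ± 0.22), and the largest difference was that of Ifi27l2a (-3.53 ± 0.30). Immediate-early genes, which respond to stimulation and to cell isolation, were higher in FAPs for 17 of 25 members, with Ier3 (-3.00 ± 0.27), Fosl1 (-2.20 ± 0.33) and Fosb (-1.31 ± 0.22) among them, and 0 were higher in satellite cells. Of the antioxidant and metallothionein genes 17 of 25 were higher in FAPs, such as the extracellular superoxide dismutase Sod3 (785 ± 554 against 35.5 ± 23.2 CPM) and the single gene higher in satellite cells was the metallothionein Mt3 (3.21 ± 0.46).

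Retinoic acid genes were also mostly on the FAP side (15 of 22). Aldh1a2, the enzyme that makes retinoic acid, was at 31.8, 25.1, 73.9 and 36.2 CPM in FAPs and at 0.457, 1.05, 0.416 and 0.995 CPM in satellite cells (-5.73 ± 0.46), Dhrs9, an enzyme of retinol oxidation, had 0 counts in satellite cells and was at least 83.9-fold higher in FAPs (2.01 ± 1.18 CPM), and the binding protein gene Crabp1 had a log2 difference of -5.08 ± 0.44. Rdh5, a retinol dehydrogenase, was the single member higher in satellite cells (61.5 ± 8.53 against 11.6 ± 3.23 CPM). In the adipogenic and lipid list 11 of 29 genes were higher in FAPs and 5 in satellite cells, the latter not above the share over all genes tested (22.5%). The early adipocyte lineage factors Ebf1 (-2.63 ± 0.31), Ebf2 (-2.98 ± 0.46) and Zfp423 (-2.58 ± 0.20) were higher in FAPs, and the lipid-handling genes Fabp5 (2.09 ± 0.27), Cd36 (1.99 ± 0.31), Plin4 (2.01 ± 0.38), Pnpla2 (0.97 ± 0.12) and Lipe (1.03 ± 0.22) in satellite cells. Other genes of lipid supply were higher in FAPs, among them the lipoprotein lipase gene Lpl (437 ± 238 against 70.5 ± 17.6 CPM, -2.47 ± 0.29) and its inhibitor Angptl4 (496 ± 258 against 145 ± 28.1 CPM, -1.64 ± 0.22). Pparg, the regulator of fat cell formation, named after its values were seen, was at 3.14 ± 1.08 CPM in FAPs and 3.13 ± 3.47 CPM in satellite cells and did not pass the test (adjusted p = 0.471). Among hormone receptors, FAPs had more of the thyroid receptor gene Thrb (-2.90 ± 0.27) and of Prlr, the prolactin receptor (3.97 ± 2.55 CPM, against 3 counts in satellite cells), and satellite cells more of the oestrogen receptor gene Esr1 (50.6 ± 7.41 against 17.8 ± 8.25 CPM, 1.61 ± 0.21).

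Guidance molecules were found on both sides. The secreted Slit2 (-3.39 ± 0.32), Slit3 (-3.60 ± 0.40), Sema3c (-3.75 ± 0.29) and Ntn1 (-1.92 ± 0.20) were higher in FAPs, and the semaphorin receptors Plxna2 (2.67 ± 0.18), Plxnb1 (4.27 ± 0.29) and Plxnb3 (4.99 ± 2.54 CPM, against 3 counts in FAPs) in satellite cells, together with the transmembrane Sema6a (108, 87.6, 74.4 and 109 CPM against 11.6, 20.3, 19.2 and 15.6 CPM in FAPs, 2.52 ± 0.23). Another semaphorin, Sema7a (-2.53 ± 0.34), was higher in FAPs. The Eph receptors were divided too, with Ephb1 (6.09 ± 0.80) and Ephb6 (1.70 ± 0.20) higher in satellite cells and Epha3 (-2.25 ± 0.25) and Ephb2 (-2.54 ± 0.21) in FAPs. In all, 17 of 40 guidance and Eph genes were higher in FAPs and 8 in satellite cells. The satellite cell share was not above the 22.5% over all genes tested. Markers of Schwann cells were also higher in the satellite cell gate (values below), and their part in these levels was not tested.

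Positional regulators differed between the cell types of the same muscle. Of 27 tested Hox and limb genes 16 were higher in FAPs and 7 in satellite cells. Tbx5, the T-box factor of the forelimb field, was at 10.3, 21.3, 3.89 and 9.24 CPM in FAPs and at 0.228, 0.299, 0.0347 and 0.142 CPM in satellite cells (-5.94 ± 0.31, adjusted p = 3.77e-05). Its paralogue Tbx4, known as the factor of the hindlimb field, was at 22.7, 23.7, 17.03 and 25.4 CPM in satellite cells and at 0.137, 0.700, 0.363 and 0 CPM in FAPs (6.36 ± 0.63, adjusted p = 0.000289). The groups overlapped for neither gene, although the supraspinatus is a muscle of the shoulder. Hoxa9 was at 29.8, 19.98, 24.4 and 27.9 CPM in satellite cells and at 0.275, 1.09, 0.207 and 0.144 CPM in FAPs (6.02 ± 0.55), Hoxa10 at 18.8 ± 4.42 against 0.525 ± 0.621 CPM (5.47 ± 0.78) and Hoxa7 at 32.7 ± 8.03 against 6.60 ± 4.36 CPM (2.50 ± 0.37). The Hoxb genes Hoxb5 (10.1, 12.7, 7.42 and 13.02 CPM in FAPs, 0.114, 1.74, 0.278 and 0.213 CPM in satellite cells, -4.72 ± 0.61) and Hoxb6 (-4.88 ± 0.65) and Hoxd9 (-4.59 ± 0.84) were higher in FAPs. Lbx1, the homeobox gene of migrating muscle precursors, was on the satellite cell side (5.75 ± 0.64), and Lmx1b, the dorsal limb factor (-5.69 ± 0.74), and Shox2 (-2.80 ± 0.37) on the FAP side. By cluster, 5 of 9 tested Hoxa genes were called higher in satellite cells and 0 in FAPs, whereas 6 of 6 Hoxb, 3 of 3 Hoxc and 2 of 2 Hoxd genes were called higher in FAPs and 0 in satellite cells. This grouping by cluster was made after the values were seen. Other genes of each cluster did not pass the filter on low counts. Genes near 0 in satellite cells, such as Hoxb6 and Hoxd9, passed it only through FAPs, and Hoxa9 only through satellite cells. The counts by cluster therefore depend on the filter.

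**Figure D4:**
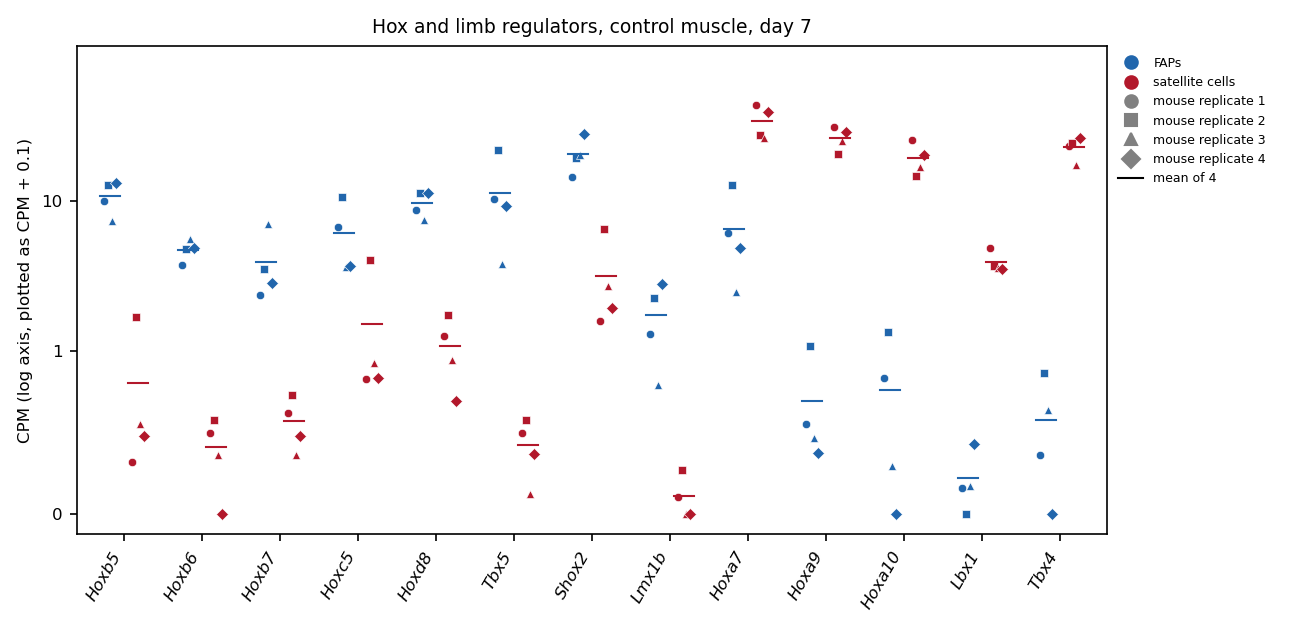
Levels of 13 Hox and limb genes in each of the 8 libraries (y axis, CPM on a log axis; blue FAPs, red satellite cells; the shape of a point gives the mouse, the line the mean of 4). Genes from Hoxb5 to Lmx1b sit higher in FAPs, and Hoxa7 to Tbx4 higher in satellite cells.

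Other transcription factors of mesenchyme were mainly on the FAP side (24 of 33), such as Osr1, a factor of embryonic FAP precursors (80.8, 96.7, 83.5 and 77.4 CPM in FAPs, 2.08, 5.15, 2.39 and 1.85 CPM in satellite cells, -4.98 ± 0.24), Osr2 (-4.38 ± 0.37), Twist2 (-4.00 ± 0.60) and Meox1 (-3.99 ± 0.33). Sox6, which represses slow fibre genes (2.65 ± 0.36), Foxp2 (2.08 ± 0.31), Sox11 (1.65 ± 0.31) and Zeb2 (0.87 ± 0.11) were higher in satellite cells. Imprinted genes were divided as well. The noncoding transcripts of the Dlk1 region, Meg3 (1366, 335, 1605 and 2995 CPM in FAPs, 405, 304, 261 and 329 CPM in satellite cells, -1.96 ± 0.48, adjusted p = 0.0135, and 0.0551 without replicate 3 and 0.0544 without replicate 4), Rian (-2.21 ± 0.40) and Mirg (-2.39 ± 0.39), were higher in FAPs together with Dlk1 and Rtl1 (-2.71 ± 0.42). H19, the noncoding partner of Igf2, was also on the FAP side (-1.65 ± 0.16). Peg3, a zinc finger gene of stem cells, was at 786, 498, 534 and 779.7 CPM in satellite cells and at 202, 55.3, 80.2 and 286 CPM in FAPs (2.33 ± 0.29), and Zdbf2 was on the same side (3.79 ± 0.39). Meg3, Rian and Mirg lie next to each other, and the sources used here do not say how the authors' counting divided reads among them.

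Markers of other cell types moved with the gates. Of the pericyte and smooth muscle list 13 of 17 tested genes were higher in the satellite cell gate (Itga7 is also a smooth muscle integrin) and 3 in the FAP gate. Rgs5, a pericyte gene, was at 346, 984, 412 and 197 CPM in satellite cells and at 2.65, 3.98, 25.8 and 3.20 CPM in FAPs, and Myh11, smooth muscle myosin, at 84.7, 238, 47.1 and 73.1 CPM in satellite cells and at 0.183, 0.919, 2.54 and 0.144 CPM in FAPs. The list summed to 2908 to 5371 CPM in satellite cells and 628 to 1277 CPM in FAPs, and replicate 2 was the highest satellite cell library for Rgs5 and Myh11. Des, the muscle gene named above with the sarcomere genes, is also in this list, and so in the 13 genes and in the sums. The genes higher in the FAP gate were Ndufa4l2 (185 ± 121 against 87.4 ± 85.5 CPM, -1.28 ± 0.19), Steap4 (278 ± 183 against 85.7 ± 66.1 CPM, -1.81 ± 0.32) and Cspg4, which encodes the pericyte proteoglycan NG2 (53.98 ± 32.3 against 42.8 ± 38.9 CPM, -0.51 ± 0.17), and the groups overlapped for each. The call of Cspg4 (adjusted p = 0.0485) was lost without replicate 1 (0.186), 3 (0.104) or 4 (0.146) and with limma voom (0.0579). Of the Schwann and glial list 10 of 14 were higher in the satellite cell gate and 0 in FAPs. Mbp, myelin basic protein, was at 229.8, 336, 46.4 and 168 CPM in satellite cells and at 1.33, 2.28, 1.61 and 0.324 CPM in FAPs (7.04 ± 0.60, adjusted p = 0.000165). Satellite cell replicate 3 was the lowest of its group. The tenocyte and cartilage genes Prg4 (323 ± 254 against 5.73 ± 3.47 CPM) and Comp (519 ± 578 against 12.1 ± 8.07 CPM) were higher in the FAP gate, where 14 of 20 of that list were called, and Chodl, a lectin gene also found in motor neurons, was higher in satellite cells (414 ± 148 against 44.5 ± 21.96 CPM). The part of such cells in the differences above was not tested.

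Leukocyte transcripts were scarce. The 24 macrophage and monocyte genes summed to 33.95 to 151 CPM in FAPs and 11.4 to 97.3 CPM in satellite cells, with 5 of 16 tested called towards FAPs and 1 towards satellite cells. Without replicate 2 or without replicate 4, 2 were called towards FAPs. The lists of neutrophil, lymphocyte, endothelial and erythroid genes summed to at most 2.85, 3.79, 291 and 100 CPM in any library. Only 1, 2, 13 and 5 of their genes were tested, with 1, 0, 5 and 0 called towards FAPs and 2 endothelial genes towards satellite cells. The endothelial calls towards FAPs were 2 without replicate 2 and 3 without replicate 1 or 4, and those towards satellite cells were 1 without replicate 1. Without replicate 2, 1 lymphocyte gene was called towards FAPs. Although these are control muscles, Ucp1, which encodes the uncoupling protein of brown adipocytes, reached 13.6 CPM in FAP replicate 4 and at most 0.415 CPM in the other 7 libraries, and Cidea, another brown fat gene, at 6.37 CPM against at most 0.263 CPM. Neither gene passed the filter on low counts.

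The division was compared with that of control muscle at day 3, in 4 other mice whose values were deposited in another table, so that day and table cannot be told apart. Of 18069 genes, the cell type difference moved towards satellite cells from day 3 to day 7 in 2788 (15.4%) and towards FAPs in 1516 (8.39%) (edgeR test of the interaction). With RLE size factors the calls were 2444 and 1923, and the median change over all genes was 0.04 in place of 0.12. Interferon and antigen presentation genes moved together in the first direction: 26 of 38 moved towards satellite cells and 0 towards FAPs, and the list median went from -3.10 at day 3 to -0.89 at day 7.

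**Figure D5:**
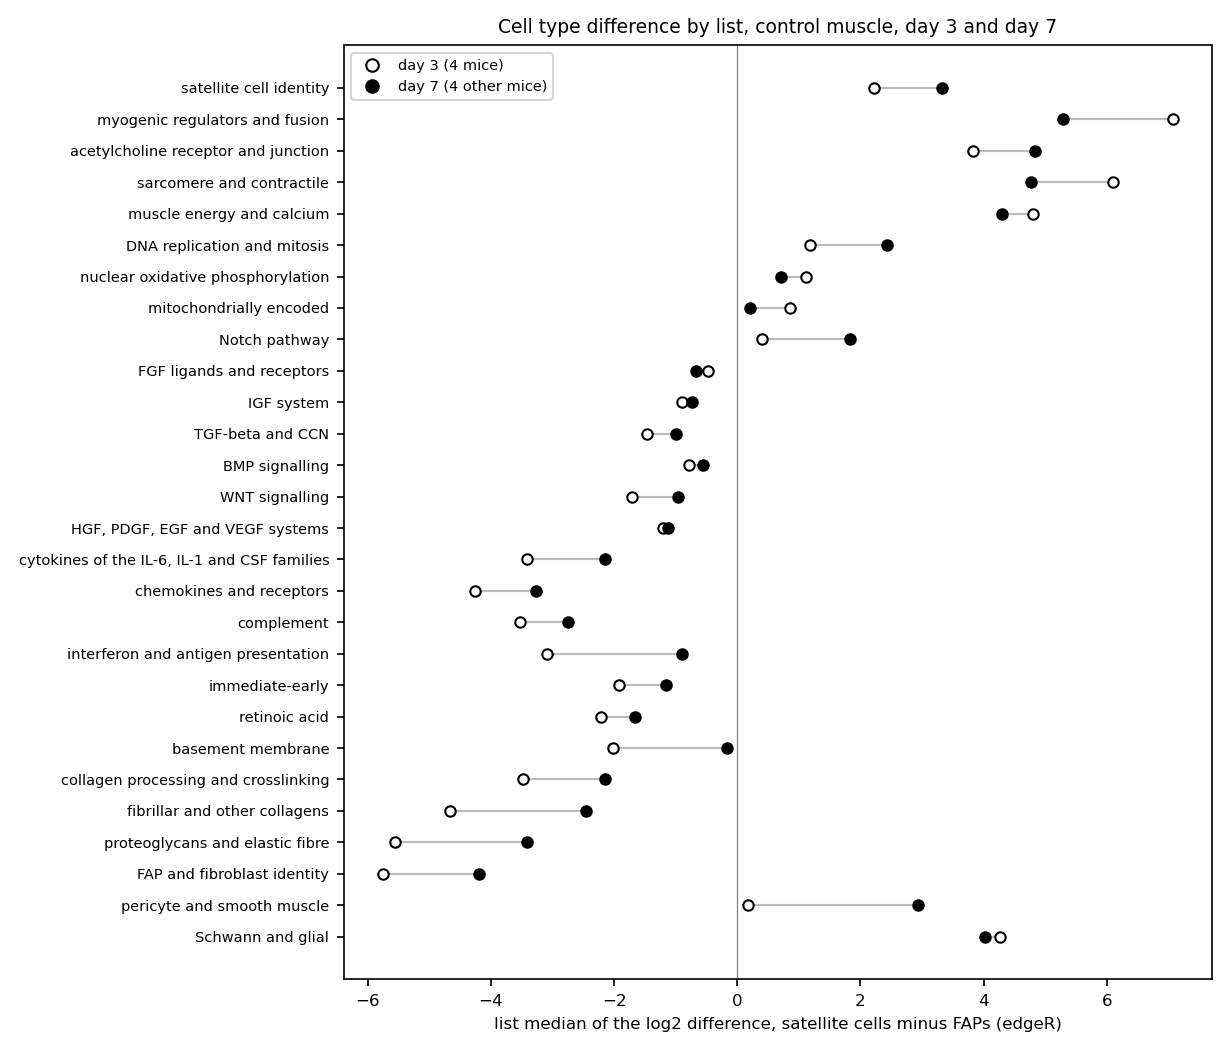
Median log2 difference of satellite cells minus FAPs (x axis) over the tested members of 28 lists at day 3 (open circles) and day 7 (filled circles) in control muscle, each day with its own fit. Interferon, collagen and pericyte lists lie further right at day 7, and the myogenic, sarcomere and mitochondrially encoded lists further left.

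Matrix lists moved the same way. Collagens moved towards satellite cells in 16 of 27 cases (list median -4.67 at day 3, -2.45 at day 7), basement membrane genes in 17 of 28 (from -2.02 to -0.17) and pericyte and smooth muscle genes in 11 of 17 (from 0.17 to 2.93), with 0 towards FAPs except 4 basement membrane genes. Replication and mitosis genes moved towards satellite cells in 26 of 45 cases, and their median went from 1.19 to 2.43. In the opposite direction moved 9 of 13 mitochondrially encoded genes and 23 of 51 nuclear genes of oxidative phosphorylation, and 11 of 37 sarcomere genes against 5 towards satellite cells.

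Single genes with the smallest p in the test of the 2 days included Msc, which encodes the muscle lineage repressor musculin and was at log2 differences of -0.74 at day 3 and 2.66 at day 7 (change 3.42 ± 0.20), the Schwann cell and immediate-early factor Egr2 (-3.12 and -0.22, change 2.92 ± 0.16) and the TGF-beta co-receptor Tgfbr3 (-4.10 and -1.22, change 2.90 ± 0.17). Ankrd1, a muscle ankyrin repeat gene induced by injury, moved towards FAPs (7.70 and 4.03, change -3.65 ± 0.22), as did Trp53i11 (6.94 and 1.83, change -5.09 ± 0.30) and the mitochondrial glycerol phosphate dehydrogenase Gpd2 (2.43 and 0.17, change -2.25 ± 0.14). Fam114a1 (2.91 ± 0.15), Dpysl3 (2.05 ± 0.12) and Islr (3.34 ± 0.20) moved towards satellite cells as well. Adjusted p of these 9 genes were 2.97e-05 to 3.13e-05.

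With BAT at day 7 no change of the cell type difference was detected. Of 18033 genes 0 passed the test of BAT minus control (edgeR, smallest adjusted p = 1; 502 genes, 2.78%, had an unadjusted p under 0.05), and DESeq2 and limma voom also called 0. In muscle with BAT, 22 of 28 satellite cell identity genes were higher in satellite cells (median 3.45) and 33 of 34 FAP identity genes in FAPs (median -4.09). A p that misses the threshold does not show that the muscles were alike.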

How the data were processed

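The authors deposited 1 table per day of estimated counts per gene, not normalized, for the sorted satellite cells and FAPs. The unit was read from the values: 72.1% of the day 7 values above 0 were whole. Per the submitters' processing notes DRAGEN and mm10 were used. The sources used here give neither the annotation nor the handling of strand or multi-mapping reads. The protocols of the labels give 10 ng of RNA per library and a RIN above 8.0.

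The tables were taken as counts when the tests were planned, and the values were therefore rounded to whole numbers, which changed a library total by at most 0.000287%. Of 55774 rows, 287 that repeated a gene identifier were removed. Libraries were grouped by the labels, and the cell types were paired by the mouse code in the labels, which matches the replicate number at day 7 but not at day 3. The library without a number in its label was called replicate 4. Deviations of the paired libraries from the group means correlated in all 4 pairs (0.145, 0.359, 0.364 and 0.157 for replicates 1 to 4). In 3 of the 4 pairs the library of the same mouse was the best match. No 2 libraries of a group agreed within sampling noise (chi-square per degree of freedom of at least 17.5). Replicates 1 and 4, whose mouse codes differ only in the last letter, were the most alike in both groups (17.5 in satellite cells, 53.8 in FAPs). The other pairs were at 62.9 or more in satellite cells and 126 or more in FAPs.

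The main test was the quasi-likelihood F test of edgeR 4.0.16 (R 4.3.3) on the 8 libraries, with TMM scaling, the mouse as a block, filterByExpr (minimum count 10, minimum total 15) and Benjamini-Hochberg adjustment over all genes tested (threshold 0.05). The interactions with day and with BAT were fitted in the same way on 16 libraries each, except that for BAT the block was the muscle (mouse by treatment). Alternatives were DESeq2 1.42.0, limma voom 3.58.1, RLE size factors, no filter, no block, a fit over the 16 day 7 libraries and leaving out each replicate. Tested on simulated data for the satellite cell and FAP comparison (16969 genes, 50 changed genes per fold), the fit recovered 34% of 2-fold, 78% of 4-fold and 96% of 8-fold changes. Far fewer genes were changed there than were called in the data, so the adjusted threshold was stricter than in the data.

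Members and the 47 gene lists were chosen with earlier results of these data known. Named are the sort markers, in each direction the 15 largest differences among genes called with a mean of at least 20 CPM in the higher group, per list the called members of the smaller side (at most 6) and the 5 most abundant and 5 most different of the larger side, members of ligand and receptor lists and of lists of at most 12 tested genes, and the 10 genes with the smallest p of the day interaction. Of the 625 genes that this rule names, 269 are described, chosen with their values known, and the others are not reported here. Of 1186 list genes, 1181 matched a symbol. Ly6a and Ly6c1, and overlapping or antisense genes, could share reads. Promoter sequences were read from RefSeq (GRCm38.p6). Intervals and floors cover counting error only. With the mouse as a block, p-values of the main test rest on how the cell type difference within a mouse varied among these 4 mice. Those of the day interaction rest on the 4 mice of day 3 as well.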

Additional observations from a re-analysis of the deposited data

Results flagged for a closer look

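In 64 of 542 groups of 4 libraries behind the named genes (11.8%), 1 library lay further from its nearest neighbour than Dixon's 95% critical value for 4 samples allows. For normally distributed values chance flags about 1 in 20 groups. A group with 0 CPM in the other 3 libraries and any count in 1 is always flagged. This holds for Calcr, Chrnd, Pax7 and Wnt10a in FAP replicate 3 and for Cdh1 in FAP replicate 4. The share of 11.8% therefore cannot be set against 1 in 20. Of these, 24 were high values of satellite cell replicate 2 and 19 high values of FAP replicate 3. In satellite cell replicate 2 Ccl20 (5.15), Ccnd2 (127), Csf1 (89.6), Ebf1 (207), Ebf2 (48.4), Hgf (4.31), Hoxb5 (1.74), Ier3 (143), Il1rl1 (69.2), Inhba (162), Itga5 (206), Lama4 (64.1), Lif (23.4), Ndufa4l2 (216), Osr1 (5.15), Osr2 (14.2), Pdgfra (6.50), Pdgfrb (318), Pparg (8.30), Trp53i11 (23.9), Twist2 (1.41), Vim (3767), Wnt2 (0.270) and Zfp423 (7.73) CPM lay above the other 3 libraries of the group. In FAP replicate 3 Ankrd1 (13.5), Asb5 (5.19), Calcr (0.0519), Cdh15 (7.57), Chrna1 (9.23), Chrnd (0.207), Cpz (50), Dll1 (1.45), Fabp5 (46.3), Fgfr4 (4.98), Myf5 (5.03), Myod1 (4.15), Myog (8.46), Pax7 (0.622), Rgs5 (25.8), Saa3 (1709), Sfrp5 (1.81), Slit2 (21.1) and Wnt10a (0.311) CPM lay above the other 3 libraries of the group. In FAP replicate 2 Hoxa9 (1.09), Jag1 (151), Pdgfb (0.657), Plxna2 (12.3) and Tcf7 (1.05) CPM lay above the other 3 libraries of the group. In satellite cell replicate 3 Chrna1 (513), Il1rn (4.61), Saa3 (15.5) and Top2a (458) CPM lay above the other 3 libraries of the group. In FAP replicate 3 Hey1 (10.6) and Sox6 (0.674) CPM lay below the other 3 libraries of the group. In FAP replicate 4 Cdh1 (0.288) and Col25a1 (0.683) CPM lay above the other 3 libraries of the group. In satellite cell replicate 1 Lbx1 (4.96) and Rtl1 (1.46) CPM lay above the other 3 libraries of the group. In FAP replicate 1 Ephb1 (0.458) CPM lay above the other 3 libraries of the group. In FAP replicate 1 Cdkn2a (0.0915) CPM lay below the other 3 libraries of the group. In FAP replicate 2 Mirg (6.70) CPM lay below the other 3 libraries of the group. In satellite cell replicate 2 Sema3c (7.28) CPM lay below the other 3 libraries of the group. In satellite cell replicate 3 Itga7 (424) CPM lay below the other 3 libraries of the group. In satellite cell replicate 4 Znrf3 (41.97) CPM lay above the other 3 libraries of the group.

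The cell type difference at day 7 differed from that at day 3, by the edgeR test of the interaction, in all 9 genes named for it (log2 change): -3.65 ± 0.22 for Ankrd1, 2.05 ± 0.12 for Dpysl3, 2.92 ± 0.16 for Egr2, 2.91 ± 0.15 for Fam114a1, -2.25 ± 0.14 for Gpd2, 3.34 ± 0.20 for Islr, 3.42 ± 0.20 for Msc, 2.90 ± 0.17 for Tgfbr3 and -5.09 ± 0.30 for Trp53i11, each ± SE.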

How the results depend on the processing

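The counts called over all genes tested stayed within 1.5 times the reported ones under every alternative that was run. Leaving out each mouse in turn gave 5585 to 6807 genes for satellite cells against FAPs, 2988 to 4291 for the change between days and 0 for BAT minus control. Without the replicate block, which pairs the libraries of a mouse, the counts were 6562, 3197 and 0. DESeq2 called 8314 genes in the comparison of cell types and limma voom 8048, and 7618 and 7620 of the 7651 edgeR calls were among them with the same sign. Of 272 named genes recomputed 2719 times, 0 reversed and 47 values lost the call, 14 of them without the block, 2 without replicate 3. The cause was not tested. Without the block, the members called towards FAPs were 1 in place of 2 for satellite cell identity, 1 in place of 3 for pericytes, 2 in place of 5 for endothelium and 3 in place of 5 for macrophages, and those called towards satellite cells were 5 in place of 8 for BMP and 3 in place of 5 for lipid genes. A single member of the myogenic list was called higher in FAPs by DESeq2, limma voom and 5 other settings. The simulation recovered 6% of 1.5-fold changes. It changed 50 genes per fold out of 16969, whereas 45.1% of genes were called in the data, so its adjusted threshold was stricter. The recovered shares therefore do not give the sensitivity of this comparison. How many changes under 2-fold were missed in the data is not known.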
